A study of Mus musculus with 6 samples.

Results

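The endocrine-like nuclei of the embryonic day 13.5 (E13.5) mouse pancreas were 303 of 2019 nuclei kept for analysis, out of 2916 E13.5 barcodes and 6373 barcodes in the series. They were chosen from their own chromatin accessibility. Nuclei with at least 2000 genes above 0 and a summed score below 15 for the erythroid genes Slc4a1, Gypc, Tal1 and Lyl1 were kept. The 15% of these with the highest sum of the gene scores of Neurod1, Myt1, Cryba2, Ptprn2 and Pax4 formed the endocrine-like set. The other 1716 kept nuclei served for comparison. Because accessibility chose the members, every contrast of this set with the other nuclei is a description and carries no test.

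The series profiled pancreatic tissue of C57BL/6 mouse embryos that either were Ptf1a+/+ (wild type, WT) or carried a deletion of a Ptf1a enhancer on both alleles (Ptf1aenh-delta/enh-delta, KO). Its title names pancreas agenesis mutations and an enhancer cluster. At E13.5, nuclei from pancreas pooled over 6 embryos per genotype gave 1 single-nucleus ATAC library each, an assay in which a transposase cuts open chromatin. At E10.5, dissected pancreatic progenitor tissue pooled from 5 to 9 embryos gave 1 ATAC and 1 RNA library per genotype. All cells of a KO embryo carried the deletion, and individual embryos cannot be told apart within a pool.

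Endocrine cells of the pancreas arise from trunk epithelium. Neurog3, a basic helix-loop-helix factor, is switched on briefly in precursors released from Notch signalling, and it activates Neurod1, Insm1, Pax4 and other factors. The descendants build a regulated secretory pathway, in which granins, prohormone convertases and amidating enzymes process peptide hormones inside dense-core granules. Many of these genes are also used by neurons, because neurons and islet cells share granule, exocytosis and excitability machinery. Ptf1a, in contrast, marks early progenitors and later the tip cells that become acinar.

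The promoters of 3 leading genes are shown as examples of sequence, with the motif matches found in them. Whether these stretches entered the gene scores is unknown, because no source used here names the tool behind the score. Each is the stretch of 250 bases upstream of the annotated start of the gene in RefSeq (GRCm38.p6), read 5′ to 3′ on the gene's strand. Capitals mark the matched motifs. Map1b, which encodes a microtubule-associated protein of neurons, has its stretch at chr13:99516603-99516852 on the minus strand. It holds CAGATG (an E-box of the Neurog3 and Neurod1 type) starting 213 bases upstream, and it overlaps the first exon of a long non-coding RNA on the other strand. Chga, the granin that nucleates dense cores, has its stretch at chr12:102554691-102554940 on the plus strand, with no match to the motifs searched. Pcsk1n, which encodes an inhibitor of the prohormone convertase Pcsk1, has its stretch at chrX:7919572-7919821 on the plus strand. It holds a match to part of the X-box bound by Rfx factors, read on the opposite strand, starting 162 bases upstream.
Map1b: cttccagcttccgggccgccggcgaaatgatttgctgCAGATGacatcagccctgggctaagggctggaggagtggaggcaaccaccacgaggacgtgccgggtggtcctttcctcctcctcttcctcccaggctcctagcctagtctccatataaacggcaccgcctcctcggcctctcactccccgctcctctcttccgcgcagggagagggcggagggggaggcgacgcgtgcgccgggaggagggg
Chga: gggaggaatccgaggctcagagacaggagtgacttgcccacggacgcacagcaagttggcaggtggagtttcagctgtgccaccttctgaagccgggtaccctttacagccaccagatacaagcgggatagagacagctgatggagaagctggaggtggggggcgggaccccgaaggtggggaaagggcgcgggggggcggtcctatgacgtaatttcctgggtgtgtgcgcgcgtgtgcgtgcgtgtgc
Pcsk1n: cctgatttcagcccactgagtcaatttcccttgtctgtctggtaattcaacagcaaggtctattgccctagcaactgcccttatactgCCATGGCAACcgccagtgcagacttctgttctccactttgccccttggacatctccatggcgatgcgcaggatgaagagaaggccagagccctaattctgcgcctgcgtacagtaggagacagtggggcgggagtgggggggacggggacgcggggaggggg

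Of the 25 leading genes named below, 21 had a promoter entry and 8 had one that ends at the annotated start of the gene. A total of 5 motifs were searched on both strands in these 8 stretches and in those of 3683 genes of the accessibility matrix chosen the same way, with no allowance for overlaps between motifs. CAGATG was present in 1 of 8 (12.5%), in Map1b, and in 382 of 3683 (10.4%). The X-box motif was present in 1 of 8, in Pcsk1n, and in 12 of 3683 (0.326%). TGTTTAC, a forkhead motif, GGACAGCG, the core of a site of the repressor Rest, and CCACTTAA, an Nkx2-type motif, were each found in 0 of 8. Their shares over the 3683 genes were 2.20%, 1.85% and 0.489%. The motifs were picked with results known, and a match describes letters, not binding.

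The deposited value is a gene-level accessibility score, scaled so that each nucleus sums to 10000 over 8269 genes, and fragment numbers per nucleus are unknown. The WT library had 2314 barcodes, of which 464 fell below the gene minimum and 133 at or over the erythroid limit, leaving 1717 (74.2%). The KO library had 602 barcodes, with 57 and 243 removed in the same way, leaving 302 (50.2%). The median number of genes above 0 in members was 4120 in WT and 4855.5 in KO. The other nuclei had a median of 4002 genes in WT and 5762 in KO. The barcodes also name a different month for each E13.5 library, so genotype, library and month cannot be told apart. The libraries shared 2 barcodes, of which 0 were members. Each genotype had 1 library, so differences lack a replicate check, no p-value is given, and intervals cover counting error only.

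The endocrine-like share of kept nuclei was 15.7% in WT (269 of 1717, exact Clopper-Pearson 95% interval 14.0% to 17.5%) and 11.3% in KO (34 of 302, interval 7.92% to 15.4%). The KO share was lower by 4.41 points, and the Newcombe interval of the KO minus WT difference ran from -7.98 to -0.0268 points, so its upper bound lay close to 0. With the kept nuclei divided into 5 equal bins by genes above 0, the WT share was 13.5%, 15.4%, 13.4%, 22.1% and 13.7%, from the fewest genes to the most. The KO share was 12%, 17.6%, 18.4%, 12.5% and 7.38%, from 3 of 25, 6 of 34, 7 of 38, 7 of 56 and 11 of 149 nuclei. The KO share was thus above the WT share where nuclei had 2949 to 4624 genes above 0, and below it in the other bins. Weighting the WT nuclei to the KO spread of genes above 0 gave a WT share of 15.4% and a difference of -4.15 points.

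The set is a range of a continuous score, not a separated population. The lowest member had a selecting sum of 21.621 and the highest nucleus outside it 21.586. Within 10% of this boundary lay 60 members and 61 other nuclei. The sum reached 73.699 at most. Its median was 28.0 in WT members and 26.4 in KO members, against 5.91 and 5.13 in the other nuclei. The plot of selecting sums shows no gap at the boundary.

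**Figure D1:**
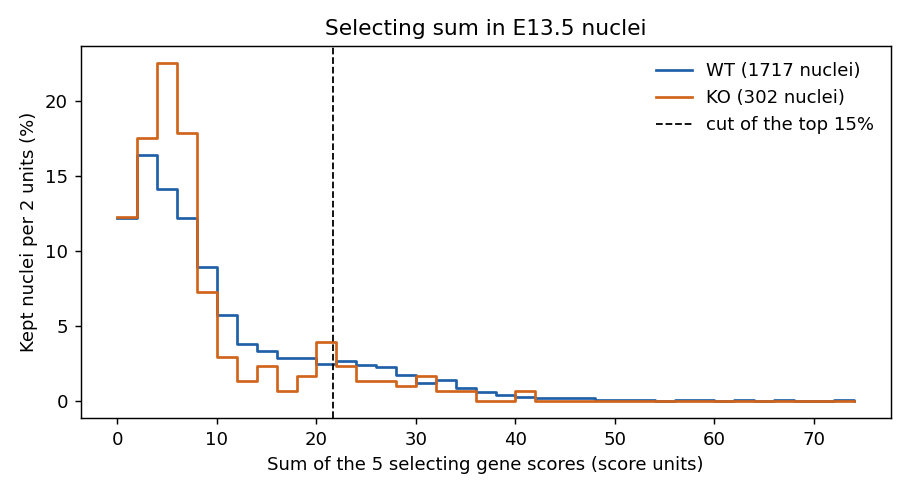
Distribution of the summed gene score of the 5 selecting genes over kept E13.5 nuclei of the WT and KO libraries, with the boundary of the top 15% drawn as a line. Nuclei run on without a gap through the boundary near 21.6, and 269 WT and 34 KO nuclei lie above it.

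The selecting genes are given as a description only. Mean scores of Neurod1, the bHLH factor directly downstream of Neurog3, were 3.77 in WT members and 1.02 in other WT nuclei, and 3.23 and 1.10 in KO. Myt1, a zinc finger factor of endocrine precursors, stood at 2.38 against 0.569 in WT and 1.34 against 0.461 in KO. Pax4, a homeodomain factor of the beta and delta lineages, stood at 2.17 against 0.495 in WT and 1.33 against 0.366 in KO. Cryba2, a crystallin family gene used as an islet marker, stood at 8.02 against 1.77 in WT and 7.01 against 1.35 in KO. Ptprn2, a dense-core granule membrane protein, stood at 13.8 against 3.25 in WT and 14.8 against 2.77 in KO. These genes therefore added unequally to the sum, and Ptprn2 and Cryba2 carried most of it.

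Outside the selecting genes, the set's markers were Rimbp2, Celf3 and Cpe. They were chosen with results of these data known, and all 3 are among the 25 leading genes of the same nuclei. Their values describe the set and do not check its label. Rimbp2, a scaffold protein of presynaptic active zones (chr5:128757788-128953644) had a mean score of 3.997 in WT members and 1.21 in the other WT nuclei. In KO the means were 4.22 and 1.39. Its median and quartiles over nuclei were 3.38 (1.87 to 5.59) in WT members and 0.453 (0 to 1.69) in the other WT nuclei, so the middle ranges did not overlap. Celf3, a neuronal regulator of splicing (chr3:94478285-94496786), stood at 2.70 against 1.06 in WT and at 2.38 against 0.770 in KO. Cpe (chr8:64592542-64693109), the carboxypeptidase that trims prohormones after cleavage, stood at 2.03 against 0.647 in WT and at 1.80 against 0.539 in KO. Cpe was above 0 in 71.7% of WT members and 36.7% of the other WT nuclei. For Celf3 and Cpe the middle ranges overlapped in WT: the members' lower quartile was 0, and the upper quartile of the other nuclei was 1.46 for Celf3 and 0.714 for Cpe. By their means, all 3 markers were higher in the members of both libraries.

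Across genes, 27 of 8211 tested genes other than the selecting ones (0.329%) were at least 2-fold higher in the endocrine-like nuclei of both libraries, and 5 (0.0609%) at least 2-fold lower. A gene was tested when it was above 0 in at least 10% of kept nuclei, averaged over the libraries. Of the 27, 10 were on the granule and exocytosis list and 4 on the list of endocrine transcription factors. The 25 genes led by the smaller of their 2 library ratios are called the leading genes here. Since the same nuclei supplied the selecting sum, these counts describe the set only. With a selecting sum that left out Ptprn2 the higher count was 13 in place of 27, and on shares of nuclei above 0 it was 1. First among the leading genes was Ids (chrX:70343069-70385834), a lysosomal sulfatase, with 1.09 in WT members against 0.325 and 0.831 in KO members against 0.215, a log2 ratio of 1.75 in WT and 1.95 in KO. Behind it, Cpe had log2 ratios of 1.65 and 1.74, Rimbp2 of 1.72 and 1.60, and Scg3, a granin that sorts cargo into granules, of 1.44 and 1.57.

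**Figure D2:**
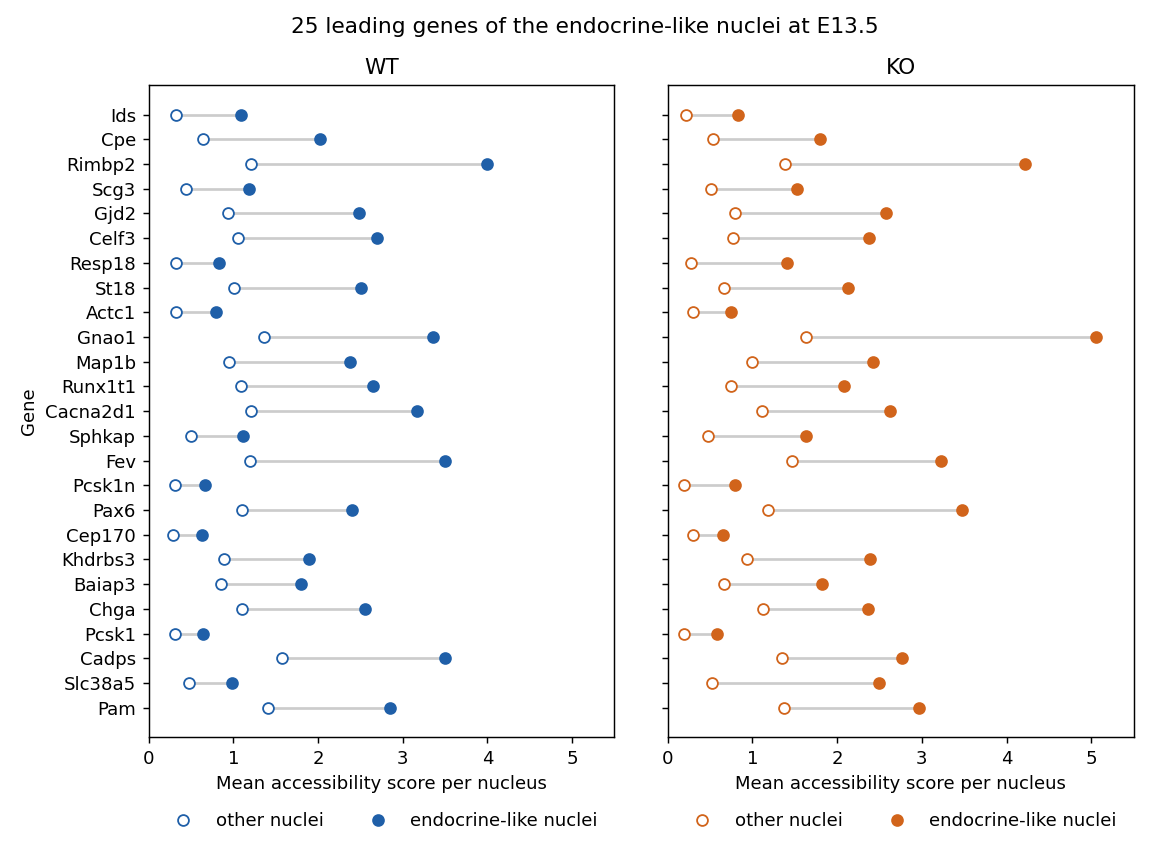
Mean gene scores of the 25 leading genes in endocrine-like and other nuclei, in the WT and KO libraries, without the 5 selecting genes. Each endocrine-like mean lies right of the other nuclei's mean in both libraries, as for Rimbp2 at 3.997 against 1.21 in WT and 4.22 against 1.39 in KO.

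The granule and exocytosis list had 33 genes in the matrix, of which 32 were tested. Of these, 10 were at least 2-fold higher in both libraries, 0 were lower, and 26 were higher to any degree in both. Over all tested genes, 0.329% were past 2-fold higher, 0.0609% past 2-fold lower, and 2339 of 8211 higher to any degree in both. The list's median log2 ratio was 0.84, against -0.03 over all genes tested. Among the hormone-processing members, the prohormone convertase Pcsk1 had mean scores of 0.640 and 0.309 in WT and 0.580 and 0.193 in KO. Its inhibitor Pcsk1n stood at 0.669 against 0.308 in WT and 0.794 against 0.188 in KO. The amidating enzyme Pam stood at 2.85 against 1.40 in WT and 2.96 against 1.38 in KO. These steps of peptide processing, with Cpe, were all more accessible in the set. Chga stood at 2.56 against 1.10 in WT and 2.36 against 1.12 in KO. Resp18, a granule protein, stood at 0.828 against 0.326 in WT and 1.40 against 0.274 in KO, the highest ratio of the list when averaged over the libraries. In WT alone Rimbp2, Cpe and Scg3 stood higher. Resp18 lies 373.355 kb from the selecting gene Cryba2. Cadps, which primes granules for release, stood at 3.50 against 1.57 in WT and 2.77 against 1.34 in KO. Chgb, Syt7, Rph3al and Ptprn were higher in both libraries but by less than 2-fold, with log2 ratios between 0.43 and 0.87. Pcsk2, the convertase that makes glucagon, had a log2 ratio of 0.78 in WT and 1.83 in KO. The lowest member was Scg2, with a log2 ratio of -0.29 averaged over the libraries.

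Genes of excitable cells and of the neuronal cytoskeleton were described next. Of 6 ion channel genes in the matrix, 1 was past 2-fold in both libraries, Cacna2d1, an accessory subunit of voltage-gated calcium channels (3.17 against 1.21 in WT, 2.63 against 1.12 in KO). Abcc8, the sulfonylurea receptor subunit of the ATP-sensitive potassium channel, had log2 ratios of 0.81 in WT and 1.28 in KO. The list's median log2 ratio was 0.74. Of 25 genes for neuronal RNA binding and cytoskeleton, 3 were past 2-fold in both libraries, namely Celf3, Map1b and Khdrbs3, and the median was 0.49. Over all tested genes, 0.329% were past 2-fold higher in both libraries. Map1b stood at 2.38 against 0.953 in WT and 2.43 against 0.995 in KO. Tubb3 and Elavl4 passed 2-fold in WT (log2 1.28 and 1.22) but not in KO (0.80 and 0.75). Gnao1, a G protein subunit of neurons and endocrine cells that was on no list, stood at 3.36 against 1.37 in WT and 5.06 against 1.64 in KO. Gjd2, which encodes connexin 36, the gap junction protein that couples beta cells, stood at 2.48 against 0.937 in WT and 2.57 against 0.789 in KO. Actc1, a cardiac actin gene, begins 32.904 kb from Gjd2 and was also among the 25, at 0.796 against 0.324 in WT and 0.748 against 0.293 in KO.

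Of 28 endocrine transcription factors, 4 were at least 2-fold higher in both libraries, 0 were lower, and the median log2 ratio was 0.52. The 4 were St18, Runx1t1, Fev and Pax6. Over all tested genes, 0.329% were past 2-fold higher in both libraries and 0.0609% lower. Pax6, needed for hormone gene expression, stood at 2.40 against 1.11 in WT and 3.47 against 1.18 in KO. St18, a zinc finger factor related to Myt1, stood at 2.51 against 1.01 in WT and 2.13 against 0.668 in KO. Runx1t1 stood at 2.64 against 1.09 in WT and 2.08 against 0.751 in KO. Fev, an ETS factor of endocrine progenitors, stood at 3.50 against 1.20 in WT and 3.22 against 1.46 in KO. Fev (chr1:74881501-74885473) lies 4.461 kb from the selecting gene Cryba2, so its score is not independent of the choice of nuclei. Without the 41 matrix genes within 500 kb of a selecting gene, 25 genes remained past 2-fold higher in both libraries.

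The precursor factors were higher by less in their means. Neurog3 had mean scores of 3.44 in WT members, 1.92 in other WT nuclei, 1.45 in KO members and 1.28 in other KO nuclei, log2 ratios of 0.84 and 0.18. In KO it was above 0 in 50% of members and 54.1% of other nuclei, with medians of 0.3065 and 0.329. By share and median it was thus not higher in KO members. Insm1, a zinc finger repressor of early endocrine cells, had log2 ratios of 0.83 and 0.54. Nkx2-2, a homeodomain factor of progenitors and endocrine cells, had 0.55 and 0.61. Rfx6, required for islet cells, passed 2-fold in WT (1.12) but not in KO (0.29). Isl1, a LIM factor of hormone cells, went the other way, with 0.63 in WT and 1.42 in KO. Pdx1 and Foxa2, factors shared with the progenitor epithelium, lay within 0.23 of 0 in both libraries. Hhex, a factor of early foregut epithelium and later of delta cells, was lower in both, with -0.68 and -0.91.

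Of 15 hormone genes in the matrix, 0 were past 2-fold in both libraries, where 0.329% of all tested genes were higher and 0.0609% lower. Their median log2 ratio was 0.45. Glucagon (Gcg) was the highest when averaged over libraries, at 0.763 against 0.406 in WT and 1.69 against 0.460 in KO. Ins1 had log2 ratios of -0.02 and 0.72, Ins2 of 0.37 and 0.22, Iapp of 0.78 and 0.47, and Sst of -0.22 and -0.07. In WT, Ins1, Ins2 and Sst therefore lay within 0.37 of 0. Of 7 genes for glucose sensing and metabolism, 1 was past 2-fold, Slc38a5, an amino acid transporter of islet cells (0.988 against 0.483 in WT, 2.49 against 0.523 in KO).

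Progenitor genes lay on the other side. The 5 genes at least 2-fold lower in both libraries were Anxa1, Cyr61, Dnmbp, Spink1 and Lgals1. Anxa1, an annexin, had log2 ratios of -1.11 and -1.26, and Cyr61, a matricellular target of Yap, of -1.07 and -1.09. Hes1, the Notch effector that represses Neurog3, had mean scores of 3.68 in WT members and 7.35 in the other WT nuclei, and 2.64 and 7.13 in KO. Its medians were 2.27 (quartiles 0 to 5.26) in WT members and 5.58 (2.40 to 10.4) in the other WT nuclei, so the middle ranges overlapped. Yap1 itself had log2 ratios of -0.94 and -1.27, and Spp1, an early trunk marker, of -0.98 and -1.34. Of 27 trunk and duct genes, 21 were lower in both libraries, 2 were higher, 0 passed 2-fold in both, and the median was -0.50. Over all 8211 tested genes, 2860 were lower in both libraries, 2339 were higher, and 0.0609% were past 2-fold lower. Sox9 stood at 13.2 against 16.4 in WT and 7.56 against 11.3 in KO. Accessibility at trunk genes was thus lower but far from absent.

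Ptf1a had mean scores of 1.82 in WT members, 4.40 in other WT nuclei, 0.932 in KO members and 1.84 in other KO nuclei. Its log2 ratio of members over others was -1.28 in WT and -0.98 in KO. Over the 16 tip and acinar genes, 9 were lower in both libraries, and 1, Spink1, passed 2-fold, with a median of -0.41. Of all 8211 tested genes, 2860 were lower in both libraries. Myc, on this list for its role in tip progenitors, had log2 ratios of -0.98 and -1.03. Of 16 Notch pathway genes, 0 passed 2-fold either way, and the median of -0.04 lay at the level of all genes, so Hes1 stood at one end of a list that was otherwise spread around it. Mfng, a fringe enzyme that modifies Notch and is a known target of Neurog3, stood at the other end at 0.54. Of 23 proliferation genes and 10 cell cycle exit genes, 0 passed 2-fold in both libraries, with medians of -0.29 and -0.32. The exit list as drawn up also names the D cyclins Ccnd1, Ccnd2 and Ccnd3, so its median may not describe exit genes alone. Over all tested genes 0.329% were past 2-fold higher and 0.0609% lower, so a count of 0 in a short list is near the general share.

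Markers of other cell types were read for the whole lists. The 19 genes of neural crest and enteric neurons, the cells most likely to share neuronal genes with endocrine cells, had a median log2 ratio of 0.05. Their summed mean score was 22.5 in members and 21.6 in other nuclei of WT, and 21.0 and 21.4 in KO. Sox10, which defines neural crest, stood at 1.68 against 1.66 in WT and 1.10 against 1.04 in KO. The summed scores of 21 mesenchyme genes were 16.6 and 16.9 in WT and 17.7 and 17.4 in KO, and those of 14 endothelial genes 10.9 and 11.8 in WT and 11.8 and 11.6 in KO. For immune genes the sums were 10.7 and 11.9 in WT and 11.3 and 11.9 in KO. None of these 4 lists had a member past 2-fold in both libraries. Over all tested genes 0.329% were past 2-fold higher and 0.0609% lower, so a count of 0 is near the general share for lists of this size. The part of these cell types in the results was not tested otherwise. Doublets were not called.

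Within the set, the means of the granule and factor lists were level over the selecting sum, while some single genes were not. Nuclei were divided by the rank of the sum. The mean score over the 25 leading genes was 0.685 in the lowest 50% of nuclei, 0.847 between ranks 50% and 75%, and 1.51 between 75% and 85%, just outside the set. Inside it, the mean was 2.04, 2.07 and 2.14 in the steps from 85% to 90%, 90% to 95% and 95% to 100%. Over the same inner steps the selecting genes themselves went from 4.69 to 5.61 and 7.67, which their use for ranking fixes. The granule list gave 1.77, 1.76 and 1.76 inside the set, against 1.45 just outside it and 0.941 in the lowest 50%. The endocrine factors gave 2.48, 2.48 and 2.44 inside, and 2.23 just outside. The list of neuronal RNA binding and cytoskeleton gave 1.48, 1.56 and 1.57 inside. Single genes went up over the 3 inner steps, such as Ids (0.962, 1.04 and 1.20), Gcg (0.666, 0.781 and 1.16) and Etv1 (1.02, 1.27 and 1.57). The nuclei just below the boundary were intermediate in these 3 lists and in the leading genes. Trunk and duct genes stood at 2.78 in the lowest 50%, 2.25 just outside the set and 1.99 in its top step. Tip and acinar genes followed a similar course, with 1.71, 1.38 and 1.16. Median genes above 0 were 4663, 4453 and 3699 in the 3 inner steps, so the top step was also the shallowest. Neural crest genes stayed between 1.13 and 1.26 in all 6 steps.

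**Figure D3:**
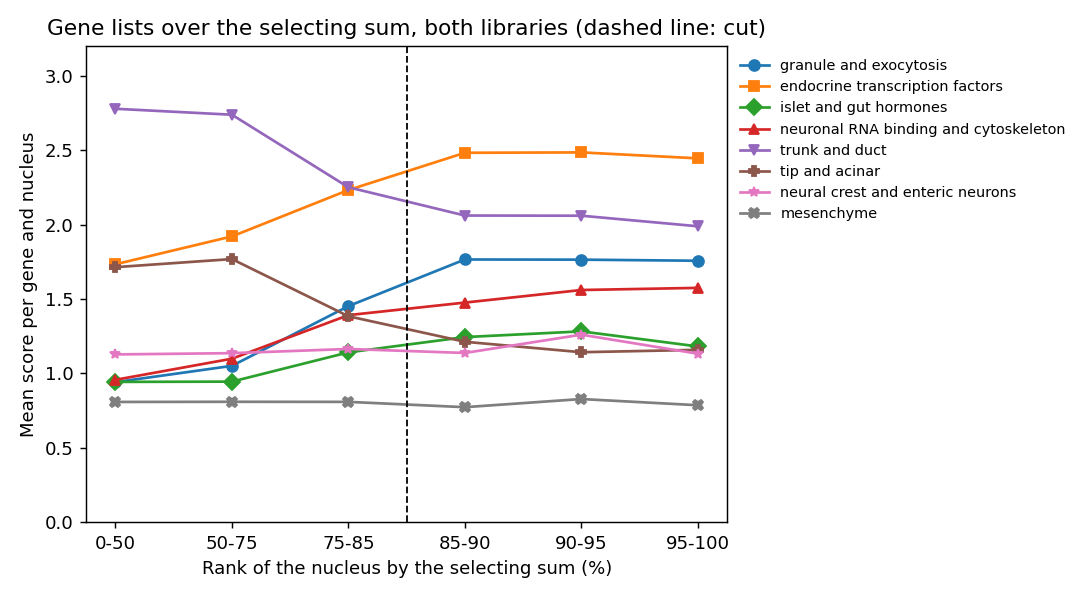
Mean gene scores of gene lists in 6 steps of nuclei ranked by the selecting sum, both libraries together. The dashed line is the boundary of the set. The granule list is level over the 3 steps inside it (1.76 to 1.77), while trunk and tip lists lie lower there than in the lowest 50%.

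Members were also divided at their median Neurog3 score of 1.293, to see whether they fell into a Neurog3-high and a hormone-stage side. In WT, 138 members above it had a mean Neurog3 score of 6.56 and a median of 4558.5 genes above 0, and 131 members at or below it had 0.157 and 3793 genes. Depth therefore differed between the sides. Several other factors stood at nearly one level on both. Insm1 stood at 2.97 and 2.90, Pax6 at 2.44 and 2.36, and Irx2 at 1.48 and 1.47. Sox4, an early precursor factor, stood at 4.86 on the high side and 3.55 on the low side, a log2 ratio of 0.46. Etv1 stood at 0.989 and 1.39, a log2 ratio of -0.49. Of the hormones, Gcg stood at 0.728 and 0.801, and Ins2 at 0.427 and 0.862. Ins1 went the other way from Ins2, at 0.633 and 0.278. In KO the sides held 13 and 21 nuclei, too few to describe gene by gene.

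The comparison of KO with WT members addressed whether the endocrine-like nuclei of enhancer-deleted embryos were open at the same genes. Within members, 123 of 8196 tested genes (1.5%) had a KO mean at least 2-fold above WT and 168 (2.05%) at least 2-fold below. In the other nuclei the same counts were 13 of 8211 (0.158%) and 3 (0.0365%). The members' ratios rest on 34 KO nuclei and the others' on 268, so they are less precise. Most of the genes at the ends were low ones, such as Trnt1 (log2 -4.75, means 0.349 in WT and 0.0129 in KO) and Reg1 (log2 2.43, means 0.130 and 0.698). Palm3 was an exception (log2 -2.14), with a mean of 1.32 in WT members. Hand2, a mesenchymal factor (-2.47), and Cybb, a gene of phagocytes (2.19), were also among the 5 lowest and 5 highest. They are followed here only for the lists.

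Endocrine factors split. Of the 28, 2 were past 2-fold higher in KO members, Isl1 and Irx2, and 1 was past 2-fold lower, Neurog3. Over all tested genes the shares were 1.5% higher and 2.05% lower, and these small counts were not tested against them. Their median log2 ratio was -0.17, against -0.10 in the other nuclei. Neurog3 had a log2 ratio of KO over WT of -1.25 in members and -0.59 in other nuclei. It was above 0 in 59.9% of WT members (interval 53.7% to 65.8%) and in 50% of KO members (32.4% to 67.6%), and these intervals overlapped. In the other nuclei Neurog3 was above 0 in 43.9% in WT and 54.1% in KO. Nkx2-2 was lower in KO members (4.85 in WT, 2.58 in KO, log2 -0.91) and by as much in the other nuclei (-0.97). Nkx6-1 did likewise, with -0.79 and -0.64. Insm1 had -0.63 and -0.34, Sox4 -0.77 and -0.04, and Tox3 -0.72 and -0.02. For Nkx2-2 and Nkx6-1 the ratio was thus close to that in the other nuclei. Other factors of precursors were near 0 or above it, such as Fev (-0.12), Hes6 (-0.06) and Sox11 (0.25). On shares of nuclei above 0, Nkx2-2 (83.6% of WT members, 85.3% of KO members), Insm1 (54.3% and 55.9%) and Sox4 (75.1% and 76.5%) were not lower in KO. KO members had more genes above 0 (median 4855.5 against 4120 in WT members), and these shares were not adjusted for that. Over the 18 alternatives Nkx2-2 ranged from -1.001 to 0.03, Nkx6-1 from -0.99 to 0.01 and Insm1 from -0.74 to 0.04. Sox4 ranged from -1.21 to 0.03 and Tox3 from -0.94 to -0.05. The upper end of each range was the ratio of shares of nuclei above 0. Nkx2-2, Nkx6-1, Insm1 and Sox4 were each below 0 in 17 of 18 alternatives, and Tox3 in 18.

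Several factors of hormone-producing cells were higher in KO members. Irx2, an Iroquois factor of alpha cells, had mean scores of 1.47 in WT members and 3.24 in KO members, against 1.35 and 1.49 in the other nuclei. It was above 0 in 49.8% of WT members (43.7% to 55.9%) and 85.3% of KO members (68.9% to 95.05%), and in 46.5% and 69.0% of the other nuclei. Isl1 stood at 1.14 and 2.57 in members and 0.735 and 0.959 in the other nuclei. It was above 0 in 44.6% of WT members (38.6% to 50.8%) and 79.4% of KO members (62.1% to 91.3%), and in 33.0% and 58.6% of the other nuclei. The share above 0 was therefore higher in KO in both kinds of nuclei, as was the median number of genes above 0. Weighting the WT nuclei to the KO spread of genes above 0 left log2 ratios of 0.90 for Irx2, 1.05 for Isl1 and -1.28 for Neurog3. Etv1 (0.81) and Pax6 (0.53) were higher by less, with 0.20 and 0.09 in the other nuclei. These ratios depended on how the set was drawn and on the measure. Over 18 alternatives Neurog3 ranged from -1.99 to -0.26, Isl1 from 0.55 to 1.30 and Irx2 from 0.78 to 1.35. The -0.26 of Neurog3 and the 0.78 of Irx2 were ratios of shares of nuclei above 0 in the same members, not of mean scores.

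Among the 15 hormone genes, 2 passed 2-fold higher in KO members, Gcg and Ghrl, where 1.5% of all tested genes did. Gcg stood at 0.763 in WT members and 1.69 in KO members, log2 1.15, against 0.18 in the other nuclei. Ghrl, the gene of ghrelin, stood at 0.502 and 1.76, log2 1.81, against -0.36 in the other nuclei. Ghrl was above 0 in 14.9% of WT members (10.8% to 19.7%) and in 35.3% of KO members (19.7% to 53.5%), so its mean rested on a minority of the 34 nuclei. Over the 18 alternatives Ghrl ranged from 0.80 to 2.15 and Gcg from 0.62 to 1.63, where the 0.62 was a ratio of shares of nuclei above 0. Ins1 had 0.85 and Pyy 0.80, while Ins2 and Iapp had -0.16 and -0.26. The granule list had a median of 0.05 in members and -0.03 in other nuclei, but Pcsk2 had a log2 ratio of 1.14 in members and 0.09 in the others. Slc38a5 stood at 0.988 in WT members and 2.49 in KO members, log2 1.33, against 0.11 in the other nuclei. The 23 proliferation genes had a median of -0.03 in members and 0.02 in the others. Of them 0 were past 2-fold higher in KO members and 3 past 2-fold lower, Mki67 (-1.71) among them. Over all tested genes the shares were 1.5% higher and 2.05% lower. Ptf1a was lower in KO in members (log2 -0.96) and in the other nuclei (-1.26).

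**Figure D4:**
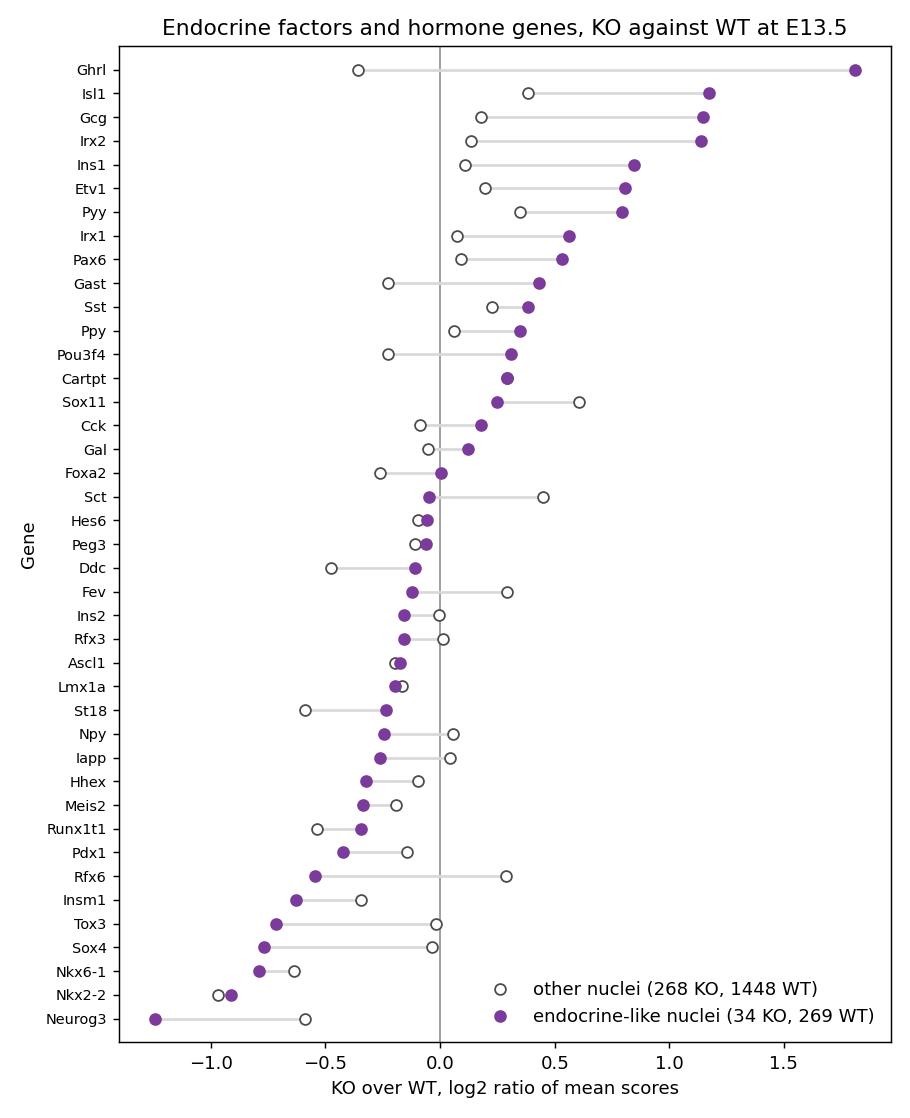
Log2 ratio of KO over WT mean scores for the endocrine factors and hormone genes reported here, in endocrine-like nuclei and in the other nuclei. Neurog3 lies at -1.25 in members and -0.59 in the others, Nkx2-2 at -0.91 and -0.97, and Isl1, Irx2, Gcg and Ghrl lie above 1 in members and at most 0.38 in the others.

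The leading genes were then read in libraries that played no part in choosing them. The same 5-gene sum and 15% boundary were applied to the E10.5 ATAC nuclei, giving 104 of 715 in WT and 96 of 620 in KO, and, as a sum of UMI fractions, to E10.5 RNA cells, giving 35 of 451 in WT and 88 of 369 in KO. All 25 leading genes were higher in the selected nuclei of both E10.5 ATAC libraries, with a median log2 ratio of 0.92. Of all 8215 genes tested there, 2390 were higher in both, with a median of -0.02. In both E10.5 ATAC libraries, 6 of the 25 passed 2-fold, where 0.195% of all tested genes did. In E10.5 RNA, 21 of 25 passed 2-fold in both libraries, where 2.19% of all tested genes did, or 2.47% of those also in the accessibility matrices. The sum and boundary were the same as at E13.5, so the nuclei were alike by construction in the selecting genes. The 25 were not part of the sum. Fev, among them, lies 4.461 kb from Cryba2, so its accessibility score is not independent of the choice of nuclei at E10.5 either.

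Most of these genes were also higher as transcripts. Cpe had 250 UMIs in the selected WT cells and 492 in the others, 570 and 134 CPM (UMIs scaled to a common total per set of cells). In KO it had 533 and 575 UMIs, 575 and 186 CPM. Pax6 had 497 and 60.5 CPM in WT and 502 and 120 CPM in KO. Fev had 187 and 14.99 CPM in WT and 172 and 26.6 CPM in KO. The transcript ratio of Fev, computed as log2 of CPM plus 10, was 2.98 in WT and 2.31 in KO. Rimbp2 had 1.67 and 1.46, and Ids 1.96 and 1.45. Of the 25, 4 were not past 2-fold in both RNA libraries. Cep170 (0.66 and 0.32), Khdrbs3 (1.11 and 0.43) and Resp18 (1.56 and 0.88) were higher in both, and Actc1 (-0.50 and 0.56) was not. Actc1 had 1 UMI in the selected WT cells and 27 in the others, and 11 and 15 UMIs in KO. In RNA, Hes1 stood at 9.12 CPM in selected WT cells and 113 CPM in the others, and at 18.4 and 85.6 CPM in KO. Spp1 had 1 UMI in the selected WT cells against 316 in the others, and 1 against 397 in KO.

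Of the factors and hormones, Isl1, Irx2, Gcg and Ghrl were past 2-fold higher in KO members at E13.5. Their E10.5 contrasts are another measure, selected over other cells within each library, and they differed among the genes. In the selected E10.5 RNA cells over others, Isl1 had log2 ratios of 2.21 in WT and 1.63 in KO, Irx2 of 2.17 and 1.79, and Gcg of 1.88 and 1.14. These do not compare KO with WT. In the selected cells Isl1 stood at 1056 CPM in WT and 1540 in KO, and Irx2 at 340 and 407. In the other cells Isl1 stood at 220 and 491 CPM, and Irx2 at 67.9 and 111. Ghrl had -1.57 in WT and 1.89 in KO, from 52 and 2694 UMIs in the selected cells. In the E10.5 ATAC libraries, Ghrl had 0.62 in WT and 0.60 in KO.

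**Figure D5:**
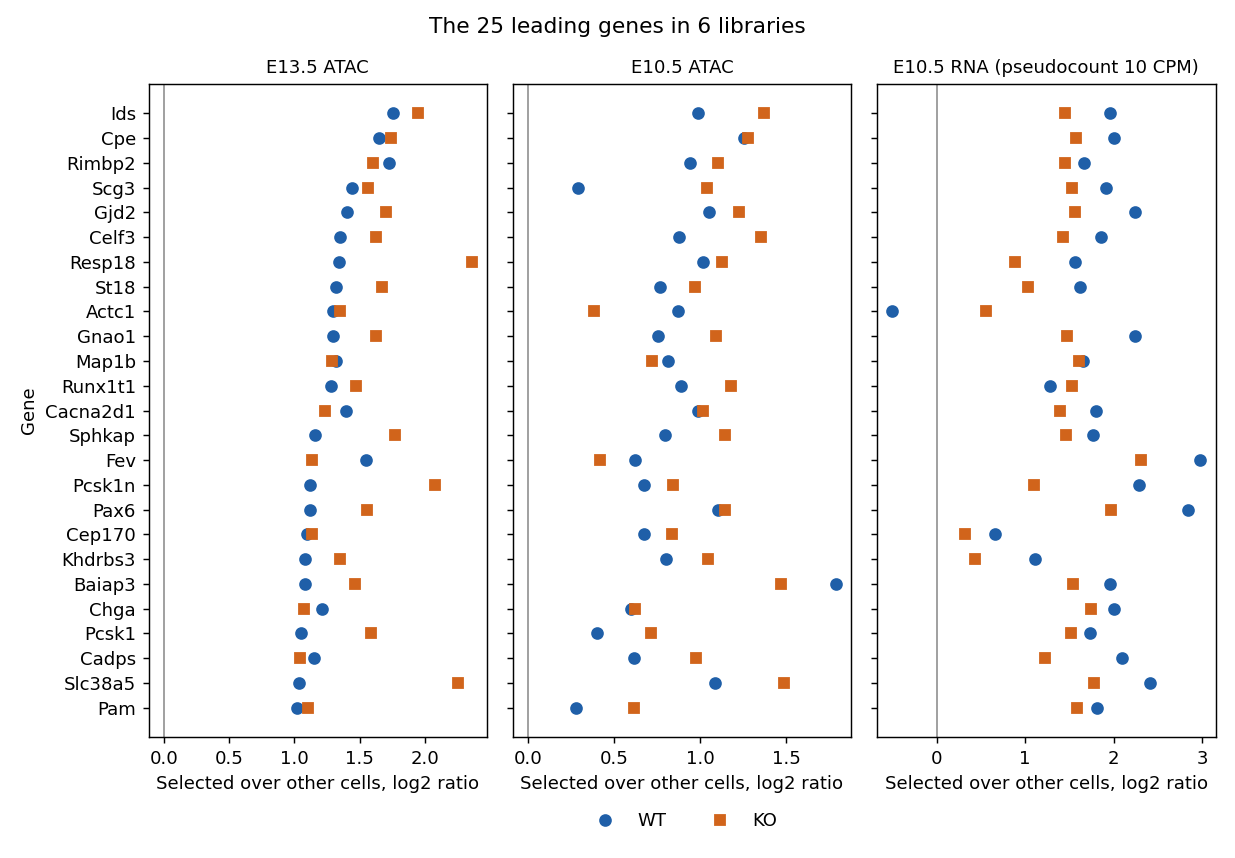
Log2 ratio of selected over other nuclei or cells for the 25 leading genes, at E13.5 in ATAC, at E10.5 in ATAC and at E10.5 in RNA, for the WT and KO libraries. All 25 lie above 0 in both E10.5 ATAC libraries and 24 in both E10.5 RNA libraries, with Actc1 below 0 in WT RNA.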

How the data were processed

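Per the labels' protocols, E13.5 pancreas was dissociated, nuclei were extracted and 10x Genomics ATAC libraries were built. The mm10 build is given in the submitters' processing notes, while no source used here names the tool behind the gene score. The deposited E13.5 and E10.5 accessibility values are a signal that is never negative and sums to 10000 per nucleus over 8269 genes, so counting depth is unknown. The deposited E10.5 RNA values are whole UMI counts for 31028 symbols, from which CPM values were computed with a pseudocount of 10 and a minimum of 50 UMIs.

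Samples were grouped by title, genotype and day, and barcodes were tied to libraries by their prefix. The members and lists were chosen with earlier results of these data known. Ratios are log2 of mean scores with no pseudocount, computed in each library, and a list's or gene's joint value is the mean of the 2 libraries' log2 ratios. Genes named are the selecting and marker genes, the 25 highest and 10 lowest by the smaller library ratio, the ends of each list, all measured factors and hormones, Ptf1a, and the 5 highest and 5 lowest for KO over WT. Other genes named in the report were chosen from the lists after their values were seen, as were the motifs and the 3 promoters printed. A few other motif forms were tried. Promoters were read only where the RefSeq entry ends at the annotated start of the gene, a choice made after seeing the data. In each KO over WT ratio, genes had to be above 0 in at least 10% of members. Cells of E10.5 RNA had at least 1000 detected genes. Python 3.11.15, numpy 2.4.6, scipy 1.17.1, pandas 2.3.3, statsmodels 0.14.6 and matplotlib 3.10.9 were used, and the calculations were tested on simulated data. Alternatives, 18 planned and 2 added after seeing the data, changed one choice at a time. Values of a few of these genes are not reported here.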

Additional observations from a re-analysis of the deposited data

Results flagged for a closer look

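Among 43 endocrine factors and hormones, 3 had ratios of endocrine-like over other nuclei that pointed in opposite directions in the WT and KO libraries by at least 0.1 each on the log2 scale. Sox4 had 0.20 in WT and -0.53 in KO. Foxa2 had -0.12 in WT and 0.15 in KO. Ppy, the gene of pancreatic polypeptide, had -0.14 in WT and 0.14 in KO. With 1 library per genotype these differences between libraries were not tested.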

How the results depend on the processing

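The 27 genes higher in both libraries became 13 with a selecting sum without Ptprn2, 1 on shares of nuclei above 0, and 43 when nuclei just below the boundary were left out (added after seeing the data). The 5 lower genes became 16 at the top 10%, 3 at the top 20%, 12 at 3000 genes above 0 or more, 9 with an erythroid sum below 10, 1 with it below 25, 10 with the ends of genes above 0 left out, 2 without Neurod1, 3 without Cryba2, 0 without Ptprn2, 1 with a pseudocount of 0.1, 2 on shares above 0, and 10 without nuclei just below the boundary. The 123 genes higher in KO members became 259 at the top 10%, 80 at the top 20%, 250 without the ends and 63 with the pseudocount. The 168 lower became 457, 102, 507 and 89 under the same settings, and 271 at 1500 genes above 0 or more, 106 with a boundary within each library and 11 on shares above 0. On shares above 0 the list medians were 0.22 for granule, 0.13 for ion channel and -0.12 for Ptf1a locus genes. Cpxm1 went from -1.02 to 0.0835 with a sum of log2(score + 1). The cause was not tested for any of these.

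Of the 25 leading genes, 19 to 24 were shared under each alternative other than shares above 0, where 9 were. The KO minus WT share difference ranged from -6.36 to -2.85 points over 13 alternatives. In E10.5 RNA, 20 and 22 of 25 genes passed 2-fold at a top 10% and a top 25% boundary. No paired analysis was possible because each genotype had 1 library per stage and assay. Fragment numbers are unknown for all nuclei, and the KO members are 34 nuclei.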

Other observations

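Besides the 25 leading genes, 2 further genes were at least 2-fold higher in the endocrine-like nuclei of both libraries. Elp4, a subunit of the Elongator complex, had mean scores of 1.43 in WT members and 0.709 in other WT nuclei, and 1.65 and 0.591 in KO. Elp4 (chr2:105697320-105904564, GRCm38.p6) overlaps the end of Pax6 (chr2:105668896-105698410), which was among the leading genes, and its introns are known to hold Pax6 enhancers. The deposited score does not show which of the overlapping genes a cut was assigned to. Mrps33, a mitochondrial ribosomal protein gene, had 1.95 and 0.963 in WT and 2.39 and 0.901 in KO. Sphkap, an anchoring protein for protein kinase A that was among the leading genes, had 1.12 and 0.4997 in WT and 1.63 and 0.477 in KO.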
